A study of Mus musculus with 10 samples.

Results

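The genes described here encode the zinc finger proteins that mouse nomenclature names Zfp followed by a number. A gene was included when its mean over the 10 libraries was at least 5 CPM (counts scaled to the library total). Members were thus selected on their measured overall level, and the difference between the groups was not used. Of the 18223 genes in the deposited table, 355 carried such a symbol, 286 of them reached the level, and these 286 members are described below. The members nearest to the limit were Zfp3 and Zfp708 at 5.02 CPM and Zfp273 at 5.08 CPM, and the genes left just outside were Zfp54 at 4.89, Zfp455 at 4.84 and Zfp85 at 4.79 CPM.

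RNA came from whole tumours grown under the skin from MC38, a mouse colon carcinoma line that forms tumours in mice with an intact immune system. In the high tumour burden group (HTB, 5 libraries) the treatment label reads 2000000 over 14 days and in the low burden group (LTB, 5 libraries) 500000 over 14 days, taken here as MC38 cells injected and days of growth. The labels give no further treatment, allele, mouse strain, age or measured tumour size, and no untreated tissue was part of the design, so LTB serves as the reference. Library totals lay between 23070917 and 27185168 estimated reads. Nothing in the labels states that the libraries came from separate animals, so p-values measure the spread between these libraries.

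Zinc finger proteins of the C2H2 kind carry short modules, each folded around a zinc ion, that are repeated in tandem and read DNA or RNA a few bases at a time. Many of the mouse genes add a KRAB domain, which recruits the corepressor TRIM28 and through it the histone methyltransferase SETDB1, and these proteins are known above all for silencing transposable elements and imprinted regions. Others act without KRAB as promoter activators, chromatin adaptors, ubiquitin ligases or factors of RNA decay.

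According to the InterPro and Pfam annotation in the deposited table, 173 of the 286 members held a KRAB domain and 113 did not. A SCAN domain, a protein interaction module, was annotated in 11 members, a BTB domain in 2 (Zfp131 and Zfp651) and the CCCH type of finger in 1 (Zfp36). In the longest reading frame of each gene's GENCODE transcripts the C2H2 finger pattern occurred a median of 10.5 times over 284 members, 12 times in KRAB members and 7 times in the others, with the highest number, 36, in Zfp142. Members differed in level as well. The median mean CPM was 15.9 for KRAB members and 33.3 for members without KRAB, and 2 of 173 against 8 of 113 reached 100 CPM. On the authors' deposited expression value, a group average that falls with transcript length and therefore allows genes to be compared, the median was 4.74 for KRAB members and 9.61 for the rest.

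The highest member on that length-scaled value was Zfp207, at 125.1 in HTB and 108.2 in LTB in the authors' deposited table. It encodes BuGZ, a spindle and kinetochore protein that also acts in splicing. Zfp740 (51.4 and 42.6), Zfp488 (41.6 and 45.0) and Zfp706 (40.7 and 39.9) followed on the same scale, with no spread given for these averages. The highest KRAB member was Zfp991, at 37.1 and 37.2, whose reads may be shared with close copies. Fractional estimated counts, which can arise when reads are divided among similar genes, occurred in 78 of 173 KRAB members and in 21 of the 113 others, so single values of those 99 genes are uncertain. They include Zfp740 and Zfp488, with fractional counts in 10 libraries each, and Zfp207, with fractional counts in 2. Among these 99 genes, Zfp980 varied most over all 286 members, from 3.73 CPM in HTB replicate 2 to 14.0 CPM in HTB replicate 4, a ratio of 3.75.

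The design asks which members differed between tumours of high and low burden. Of the 286 members 13 rose and 3 fell in HTB, and 270 did not pass (edgeR quasi-likelihood test, Benjamini-Hochberg adjusted p under 0.05 over all 13470 genes tested). In all, 5.59% of members passed against 11.4% of all genes tested. By direction the share was 4.55% higher, beside 3.9% of all genes, and 1.05% lower, beside 7.51%. Most members nonetheless stood slightly above LTB: 220 of 286 had a positive log2 fold change, 76.9% against 52.7% of all genes, and the median was 0.12 against 0.02. The shares of positive members ranged from 73.1% to 83.9% over all scalings, filters, tools and left-out libraries that were run, and the median stayed above 0 in each. All 5 HTB libraries lay above all 5 LTB libraries for 16 members, 5.59% of them, and all below for 5, 1.75%, where 4.68% and 7.06% of all genes did so. Single libraries mattered to the 16 that passed edgeR: with HTB replicate 3, 4 or 5 left out the number was 7, 8 or 9, with LTB replicate 3 left out it was 10, and with HTB replicate 2 left out it was 57.

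**Figure D1:**
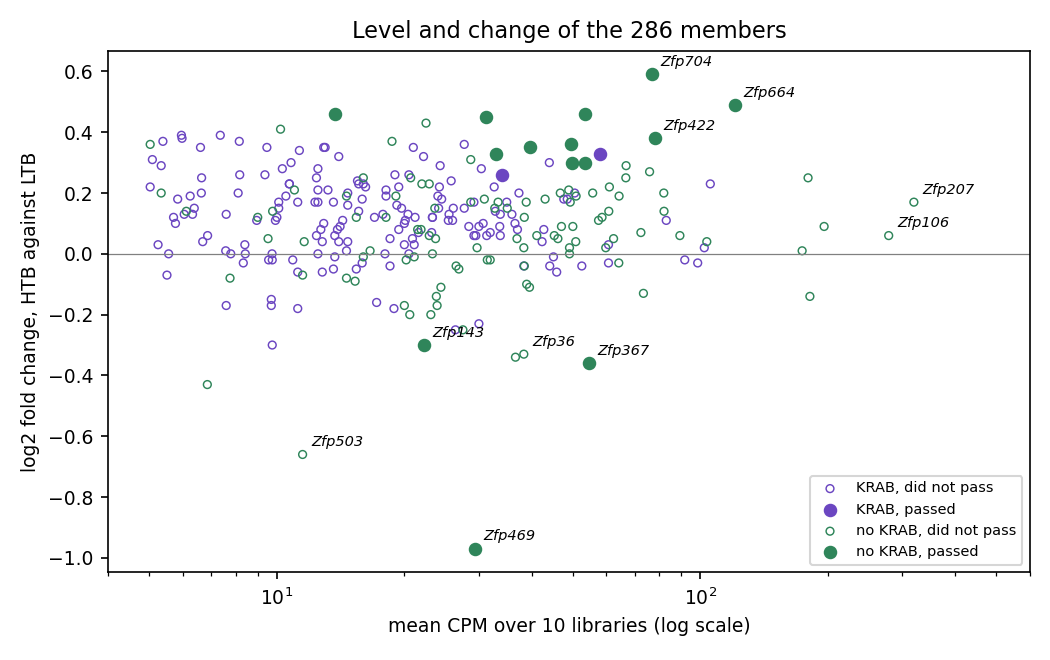
Log2 fold change of HTB against LTB (vertical axis) against the mean CPM over 10 libraries (horizontal log axis) for each of the 286 members, KRAB members in purple and the others in green, with filled points for the 16 that passed. Most points lie a little above 0, and Zfp469, at -0.97, lies lowest.

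The members that passed lay mostly outside the KRAB class. Of the 113 members without KRAB 11 rose and 3 fell, with a median log2 fold change of 0.09. Among the 173 KRAB members 2 rose (Zfp266 and Zfp9) and 0 fell, with a median of 0.12 and 138 positive values. Thus 12.4% of members without KRAB and 1.16% of KRAB members passed, beside 11.4% of all genes tested. At an unadjusted p under 0.05 in the same edgeR fit, 21 KRAB members were higher and 2 lower, beside 13.9% and 15.2% of all genes. The DESeq2 Wald test called 5 KRAB members higher and 0 lower. Over all members the DESeq2 Wald test called 24 higher and 4 lower, beside 7.82% and 10.2% of the genes it tested. The split of calls by KRAB was not tested. KRAB members had the lower read counts, and the median standard error of their log2 fold changes was 0.12 against 0.09 in members without KRAB.

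Zfp422, also known as Krox-26, had the smallest adjusted p. Its TMM-scaled CPM was 88.2, 83.7, 84.1, 99.0 and 87.6 in HTB replicates 1 to 5 and 68.3, 68.2, 67.3, 69.8 and 67.5 in LTB replicates 1 to 5. All HTB libraries stood above all LTB libraries, and the LTB libraries lay close together. The mean rose from 68.2 ± 0.988 CPM in LTB to 88.5 ± 6.18 CPM in HTB (SD, n = 5 each). On the log2 scale this was 0.38 ± 0.06 (standard error, as for every log2 fold change below), with an edgeR adjusted p of 0.00346. The gene (NCBI gene 67255) spans chromosome 6 from 116624016 to 116628999 in GRCm38, exons and introns together. Its estimated counts were fractional in 8 libraries, so reads may be shared with a similar sequence.

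Zfp362 had 61.1, 54.5, 64.5, 64.4 and 64.7 CPM in HTB and 39.2, 48.4, 42.4, 49.5 and 45.7 CPM in LTB. The groups did not overlap, and HTB replicate 2 was the lowest of its group. It rose by 0.46 ± 0.08 (edgeR adjusted p = 0.00642). Zfp362 (230761) lies on chromosome 4 from 128773085 to 128806112, and all its counts were whole.

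Zfp664 was the most abundant member in CPM among those that passed. It stood at 142.7, 115.4, 142.9, 155.2 and 149.3 CPM in HTB and at 83.2, 109.2, 109.8, 106.8 and 94.7 CPM in LTB. Again no HTB library reached down into the LTB range, with HTB replicate 2 nearest to it. The log2 fold change was 0.49 ± 0.10 (edgeR adjusted p = 0.0131). Zfp664 (269704) lies on chromosome 5 from 124862705 to 124888630.

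Zfp704, known as Gig1, a gene induced by glucocorticoids, had the largest rise at 0.59 ± 0.14 (edgeR adjusted p = 0.0229). Its CPM was 90.2, 66.4, 104.2, 99.8 and 102.1 in HTB and 46.2, 68.9, 63.9, 63.1 and 64.8 in LTB. The groups overlapped: HTB replicate 2 lay below LTB replicate 2, and LTB replicate 1 lay far below the rest of its group. Zfp704 (170753) spans chromosome 3 from 9427010 to 9610085.

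Zfp266 and Zfp9 were the KRAB members that rose. Zfp266, which has been described as a barrier to the reprogramming of mouse cells to pluripotency, had 65.6, 57.1, 63.5, 68.4 and 68.9 CPM in HTB and 46.1, 55.4, 53.3, 49.6 and 52.0 in LTB. HTB replicate 2 came within 2 CPM of LTB replicate 2, with no overlap. Its log2 fold change was 0.33 ± 0.07 (edgeR adjusted p = 0.0148). Zfp266 (77519) lies on chromosome 9 from 20495068 to 20522261 and its listed span overlaps that of Zfp26, so reads of the shared stretch cannot be assigned with certainty. Zfp9 passed narrowly, at 0.26 ± 0.07 (adjusted p = 0.045), with fractional counts in 9 libraries.

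Zfp469 showed the largest fall. It had 23.4, 13.9, 17.7, 20.3 and 24.7 CPM in HTB and 26.3, 40.4, 48.6, 34.4 and 45.9 CPM in LTB. All HTB libraries lay below all LTB libraries, and LTB replicate 1 was nearest to them. The log2 fold change was -0.97 ± 0.19 (edgeR adjusted p = 0.0118). In humans, mutations of the orthologue ZNF469 cause brittle cornea syndrome, a disorder of connective tissue. Zfp469 (195209) spans chromosome 8 from 122043131 to 122272650. Of the 7 fibroblast markers examined 0 passed in edgeR, beside 11.4% of all genes (1 higher at an unadjusted p under 0.05, 1 higher by DESeq2). Their summed CPM was 6690.4 to 10738.7 in HTB and 5391.7 to 8071.7 in LTB. Without HTB replicate 2 Pdgfra rose (0.78, edgeR adjusted p = 0.0158), and Col1a1 stood at -0.96 (adjusted p = 0.0821). The part of fibroblasts in the fall of Zfp469 was not tested.

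**Figure D2:**
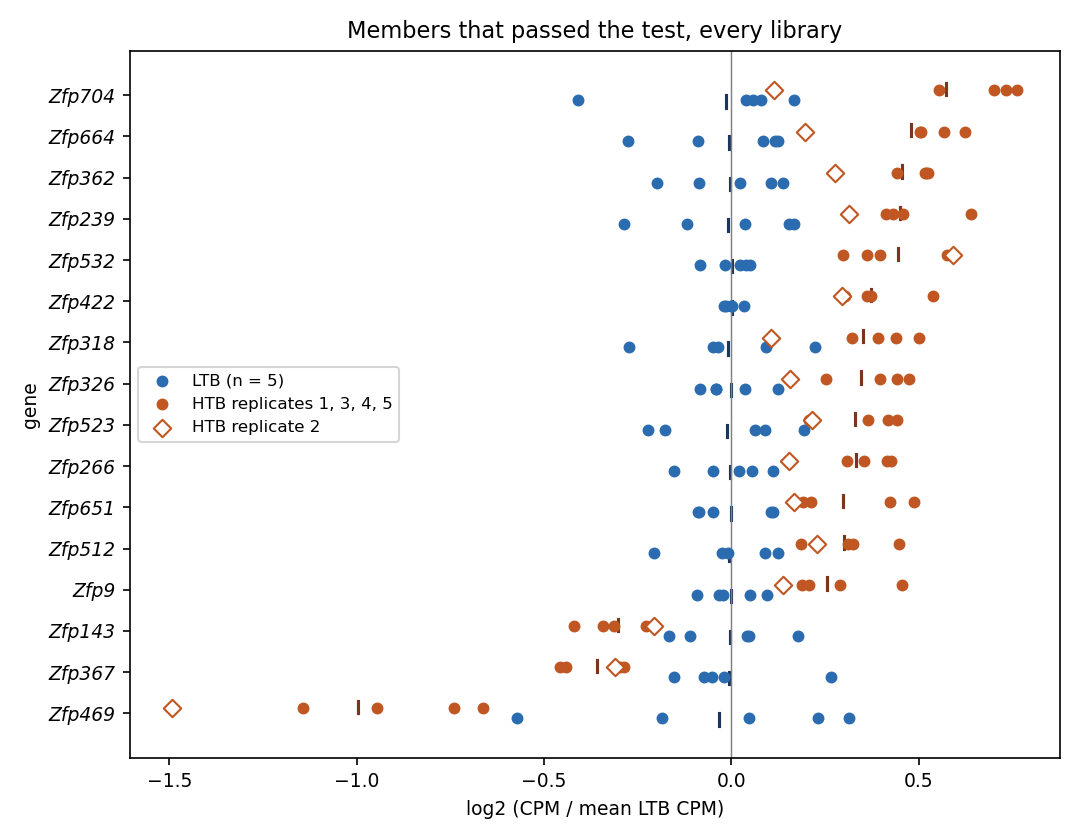
Each library's CPM for the 16 members that passed, as log2 of its ratio to the mean of LTB (horizontal axis), with HTB in orange, HTB replicate 2 as open diamonds, LTB in blue and short vertical bars at the mean log2 ratio of each group (n = 5 each). HTB replicate 2 is the lowest HTB point for most of the 13 members that rose, and the groups overlap for Zfp704 and Zfp318.

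Members of known function were then followed by role. Of the 286 members 44 were in a table of roles written for this purpose, and 39 of these 44 did not pass. Their counts below stand beside 3.9% of all genes that rose and 7.51% that fell. Among 18 promoter and chromatin factors, 2 rose (Zfp532 and Zfp318) and 2 fell (Zfp143 and Zfp367). Zfp532 belongs with Zfp592 and Zfp687 to the Z3 complex, which binds the chromatin reader ZMYND8. It had 32.3, 39.6, 39.2, 34.6 and 33.8 CPM in HTB and 26.7, 26.0, 27.2, 27.0 and 24.8 CPM in LTB. No values overlapped, and HTB replicate 2 was here the highest library. The log2 fold change was 0.45 ± 0.07 (edgeR adjusted p = 0.00518), with fractional counts in 10 libraries. The other subunits did not pass, with Zfp592 at 0.14 ± 0.07 (adjusted p = 0.188) and Zfp687 at 0.20 ± 0.11 (adjusted p = 0.253). Without HTB replicate 2 Zfp592 rose (0.19 ± 0.06, edgeR adjusted p = 0.0451) and Zfp687 did not pass (0.25 ± 0.10, adjusted p = 0.11).

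Zfp143 encodes Staf, an activator that binds promoters of coding genes and of small nuclear RNA genes, and Zfp523 encodes its paralogue, known in humans as ZNF76. Zfp143 had 21.0, 21.3, 19.8, 18.4 and 19.4 CPM in HTB and 21.9, 25.3, 25.4, 22.8 and 27.8 CPM in LTB. Zfp523 had 33.8, 34.0, 37.7, 39.8 and 39.1 CPM in HTB and 25.1, 30.6, 25.9, 31.2 and 33.5 CPM in LTB. In neither gene did the groups overlap, although single libraries of the 2 groups came close. Zfp143 fell by 0.30, with a standard error of 0.08 (edgeR adjusted p = 0.0371), and Zfp523 rose by 0.33 with a standard error of 0.09 (edgeR adjusted p = 0.0445). Both calls are narrow, and the listed span of Zfp523 on chromosome 17 overlaps that of Scube3.

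The promoter windows of this pair are shown because the paralogues moved in opposite directions, with those of Zfp266, the KRAB member with the smaller adjusted p, and of Zfp53 and Zfp1, KRAB members that hold motifs counted below. Each is 250 bases upstream of an annotated start, from RefSeq on GRCm38.p6: Zfp143 at chr7:110061452-110061701 on the plus strand, Zfp523 at chr17:28176946-28177195 on the plus strand, Zfp266 at chr9:20521420-20521669 on the minus strand, Zfp53 at chr17:21488738-21488987 on the plus strand and Zfp1 at chr8:111643193-111643442 on the plus strand. Capitals mark, on either strand, the GC box GGGCGG, the CCAAT box, the cAMP response element TGACGTCA, the ETS core CCGGAAG and the ZNF143 core, whose match in Zfp1 reads GGAATTGTAGT and whose base after GGA may be any of the 4.
Zfp143: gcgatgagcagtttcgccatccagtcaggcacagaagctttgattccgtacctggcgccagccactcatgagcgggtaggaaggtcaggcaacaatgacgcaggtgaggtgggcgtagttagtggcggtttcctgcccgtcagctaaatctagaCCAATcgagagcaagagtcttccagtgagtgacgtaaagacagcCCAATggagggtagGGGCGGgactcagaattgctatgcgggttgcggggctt
Zfp523: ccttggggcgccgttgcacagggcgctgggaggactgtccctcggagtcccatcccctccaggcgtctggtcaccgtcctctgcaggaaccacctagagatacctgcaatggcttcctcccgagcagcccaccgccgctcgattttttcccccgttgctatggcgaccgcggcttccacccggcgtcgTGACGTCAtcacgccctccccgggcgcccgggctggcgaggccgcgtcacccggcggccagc
Zfp266: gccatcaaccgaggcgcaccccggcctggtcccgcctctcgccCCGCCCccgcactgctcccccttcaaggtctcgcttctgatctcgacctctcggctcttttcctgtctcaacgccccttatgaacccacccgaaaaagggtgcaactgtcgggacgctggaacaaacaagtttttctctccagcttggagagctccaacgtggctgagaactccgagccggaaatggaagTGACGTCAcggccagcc
Zfp53: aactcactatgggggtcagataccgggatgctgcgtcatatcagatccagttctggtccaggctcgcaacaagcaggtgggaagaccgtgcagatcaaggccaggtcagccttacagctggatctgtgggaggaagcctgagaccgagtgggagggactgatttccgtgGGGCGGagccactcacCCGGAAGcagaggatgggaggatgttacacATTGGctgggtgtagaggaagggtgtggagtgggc
Zfp1: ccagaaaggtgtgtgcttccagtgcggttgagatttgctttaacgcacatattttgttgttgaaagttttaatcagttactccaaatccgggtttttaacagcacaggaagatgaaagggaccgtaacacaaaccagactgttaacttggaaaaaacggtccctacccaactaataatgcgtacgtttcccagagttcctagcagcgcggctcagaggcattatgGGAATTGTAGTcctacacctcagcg

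Zfp143 held a GC box and CCAAT boxes in this window, Zfp523 a cAMP response element (a window at its other annotated start, chr17:28177168-28177417, held a GC box and no cAMP response element), and Zfp266 a GC box and a cAMP response element. Promoter windows were found for 238 members (289 windows, since some genes have several starts) and compared with all 32851 windows of the same length. The CCAAT box was present in 58.5% of windows of KRAB members, 35.4% of those of other members and 33.8% of all. The ETS core was present in 21.0%, 10.6% and 6.91%, and the GC box in 33.0%, 61.1% and 32.7%. The ZNF143 core was present in 10 of the 289 windows of members, 3.46%, and in 0.935% of all windows. The median GC content was 52.2% for windows of KRAB members, 62.0% for other members and 52.4% for all, and members of a tandem group can share promoter sequence by descent. None of the 10 members whose window held the ZNF143 core passed, where 5.59% of all members and 11.4% of all genes did. Their log2 fold changes ran from -0.20 (Zfp692) to 0.29 (Zfp128). Without HTB replicate 2, Zfp1 rose and Zfp692 fell. A link of these genes to the fall of Zfp143 was not tested. A match describes letters in a window and no binding was measured.

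Zfp367, a transcription factor tied to the cell cycle, had 45.3, 49.6, 44.8, 50.0 and 50.4 CPM in HTB and 59.3, 58.5, 73.9, 60.7 and 55.3 CPM in LTB. The groups did not overlap, and LTB replicate 3 was far above the other LTB libraries. The log2 fold change was -0.36 ± 0.08 (edgeR adjusted p = 0.0209). Zfp367 (238673) lies on chromosome 13 from 64133025 to 64153199. Zfp318, known for controlling IgD in B cells, rose by 0.36 ± 0.10 (adjusted p = 0.0446), with HTB replicate 2 at 46.8 CPM inside the LTB range of 36.0 to 50.8. Other factors of this group stood close to 0, such as Zfp219 at 0.00 ± 0.06, Zfp217, a partner of CoREST, at 0.02 ± 0.08 and Zfp281, a regulator of pluripotency, at 0.05 ± 0.07. Zfp292, described as a tumour suppressor in colon cancer, was at -0.34 ± 0.14 (adjusted p = 0.139).

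Among 10 members that act on RNA, 1 rose and 0 fell, beside the same 3.9% and 7.51% of all genes (3 higher and 0 lower at an unadjusted p under 0.05 in edgeR, 2 and 0 by DESeq2). Zfp326, a subunit of the DBIRD complex that couples transcription to splicing, had 41.6, 38.9, 45.9, 48.5 and 47.4 CPM in HTB and 33.9, 33.9, 35.8, 32.9 and 38.0 CPM in LTB. The lowest HTB library, replicate 2, was just above the highest LTB library. Its log2 fold change was 0.35 ± 0.07 (edgeR adjusted p = 0.0158), and the gene (54367) lies on chromosome 5 from 105876568 to 105919767. Zfp207 did not overlap between the groups, with HTB libraries at 328.5 to 349.9 and LTB libraries at 275.5 to 321.7 CPM, yet did not pass (0.17 ± 0.06, adjusted p = 0.0816). Zfp106, an RNA-binding protein needed by motor neurons and muscle, varied least of all members, with its highest library 1.14 times its lowest. It stood at 0.06 ± 0.05 (adjusted p = 0.511), and at 270.0 CPM in HTB replicate 2, within the LTB range of 259.2 to 294.6. Zfp598, the sensor of collided ribosomes, was at 0.04 ± 0.06, and Zfp638, which silences unintegrated retroviral DNA, at 0.27 ± 0.10 (adjusted p = 0.0988).

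Zfp36 encodes tristetraprolin, which binds AU-rich elements of cytokine mRNAs and brings them to the CCR4-NOT deadenylase. Its CPM was 36.5, 46.5, 25.8, 26.4 and 35.4 in HTB and 77.1, 31.5, 34.0, 36.5 and 35.1 in LTB. LTB replicate 1 stood alone, and the other LTB libraries lay inside the HTB range. Zfp36 did not pass (-0.33 ± 0.26, adjusted p = 0.433). Of 13 genes listed for CCR4-NOT and the paralogues of ZFP36, edgeR called 0, beside 11.4% of all genes. At an unadjusted p under 0.05 in edgeR, 3 were higher, beside 13.9% of all genes. DESeq2 called 2 higher, beside 7.82% of the genes it tested. The paralogues stood at 0.28 ± 0.08 (Zfp36l2, adjusted p = 0.0595) and 0.26 ± 0.12 (Zfp36l1, adjusted p = 0.173), and without HTB replicate 2 both rose (0.33 and 0.34, adjusted p 0.0126 and 0.04), as did Cnot4 and Cnot6. Of 10 tested mRNAs known as targets of tristetraprolin 2 fell, Tnf (-2.05 ± 0.54, adjusted p = 0.0356) and Vegfa (-0.66 ± 0.14, adjusted p = 0.0135), with a list median of -0.78. Over all genes 7.51% fell. Only 1 target passed without LTB replicate 3, and 4 without HTB replicate 2, where 12.7% of all genes fell. Macrophage markers, summed over 6 genes, reached 1678.4 CPM in LTB replicate 1, 787.5 to 1230.0 in the other LTB libraries and 438.8 to 739.2 in HTB. Most of the sum in LTB replicate 1 was Lyz2, at 1102.8 CPM, while Mrc1 was the lowest of LTB there, at 69.3 CPM. Of the 6 markers edgeR called 3 lower in HTB (Cd68, Itgam and Lyz2), and Adgre1, Csf1r and Mrc1 did not pass. The part of macrophages in these values was not tested.

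Lineage factors and ligases did not pass in edgeR, 0 of 7 and 0 of 2 (at an unadjusted p under 0.05, 2 lineage factors were higher and 1 lower; DESeq2 called 2 higher and 0 ligases). Zfp608 was highest at 0.43 ± 0.14 (adjusted p = 0.062). Zfp503, a repressor of the NET family, had 10.7, 15.0, 5.16, 4.89 and 9.12 CPM in HTB and 16.4, 16.2, 12.9, 14.5 and 11.0 in LTB. HTB replicate 2 fell among the LTB libraries, whereas the other HTB libraries lay below all of them. It stood at -0.66 ± 0.29 (adjusted p = 0.158), and fell without HTB replicate 2 (-0.93 ± 0.24, adjusted p = 0.023). Zfp423, a factor of preadipocyte commitment, was at -0.25 ± 0.20, and the ubiquitin ligase Zfp91, among the highest members in CPM, at 0.09 ± 0.06.

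None of the 7 KRAB members with well-known roles passed in edgeR (0 of 7 at an unadjusted p under 0.05 and by DESeq2). Zfp57 and Zfp445, which guard methylation at imprinted regions, stood at 0.09 ± 0.17 and 0.11 ± 0.10. The HTB libraries had 25.2 to 47.4 CPM of Zfp57 and the LTB libraries 24.8 to 36.6, so the groups overlapped widely. Zfp809, which silences murine leukaemia proviruses, stood at 0.08 ± 0.13 (14.3 ± 1.54 against 13.5 ± 2.41 CPM, SD, n = 5 each), and Zfp932, a silencer of endogenous retroviruses, at 0.08 ± 0.12. Zfp568, which represses a placental promoter of Igf2 in the embryo, was at 0.13 ± 0.11.

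The corepressor genes that KRAB proteins depend on were measured in the same fit. Of 22 tested 2 rose, Chd4, the helicase of the NuRD complex (0.30 ± 0.06, adjusted p = 0.0151), and Morc2a, an ATPase that works with the HUSH silencing complex (0.18 ± 0.05, adjusted p = 0.0492). By direction 9.09% of the list rose and 0% fell, beside 3.9% and 7.51% of all genes. Trim28, the direct partner of KRAB, stood at -0.02 ± 0.07 (260.0 ± 22.4 against 263.2 ± 7.57 CPM, SD, n = 5 each), and Setdb1 at 0.11 ± 0.06 (adjusted p = 0.226). The member Zfp410, known as a dedicated activator of Chd4, was at 31.8 ± 2.21 CPM in HTB and 32.2 ± 1.24 CPM in LTB (SD, n = 5 each), with a log2 fold change of -0.02 ± 0.06. The count of 2 became 1 when any single library other than HTB replicate 2 or LTB replicate 2 was left out. Without HTB replicate 2 it was 6 (5 higher and Uhrf1 lower), 27.3% of the list beside 22.4% of all genes.

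The small upward shift was shared by many members but not by all libraries. Relative to the LTB mean, the median member stood at 0.17, 0.11, 0.19 and 0.20 on the log2 scale in HTB replicates 1, 3, 4 and 5, and at -0.13 in HTB replicate 2. In LTB it was -0.12 in replicate 1 and -0.01 to 0.07 in the others. HTB replicate 2 and LTB replicate 1 were therefore low together, while the median of all genes of at least 5 CPM stayed between -0.01 and 0.02 in every library. The members' plain CPM summed to 9666.2, 7858.9, 9686.8, 10001.5 and 9962.9 in HTB and to 8079.5, 8958.7, 9087.5, 8508.9 and 8398.6 in LTB. HTB replicate 2 was the lowest of all 10 libraries, and every other HTB library exceeded every LTB library. The means were 9435.3 ± 894.5 and 8606.6 ± 414.1 CPM (SD, n = 5 each), a difference of 828.6 CPM that is smaller than the spread within HTB. Without HTB replicate 2 the HTB mean was 9829.3 ± 177.4 CPM (n = 4).

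Different marker genes stood out in these 2 libraries. HTB replicate 2 was high in muscle and adipocyte markers, and LTB replicate 1 in T cell markers and the macrophage sum. All 7 skeletal muscle markers were highest in HTB replicate 2, where they summed to 13347.5 CPM against 6.32 to 55.4 CPM elsewhere, and all 6 adipocyte markers were highest there too, at 2733.6 against 10.1 to 27.2 CPM. In most other libraries Cidec, Lep and Retn were at 0. T cell markers summed to 185.6 CPM in LTB replicate 1, to 41.3 to 88.7 in the other LTB libraries and to 15.4 to 42.3 in HTB. Of these 7 markers edgeR called 5 lower in HTB, beside 7.51% of all genes. The sum of the fibroblast markers was the lowest of its group in both libraries, at 6690.4 CPM in HTB replicate 2 and 5391.7 in LTB replicate 1. Most of this sum was Col3a1, at 4387.6 and 2990.5 CPM, and the markers did not move together. Col1a1 was the highest of its group in both libraries, at 848.2 and 572.7 CPM. In HTB replicate 2 Col1a2 (965.0 CPM) and Lum (26.1 CPM) were also the highest of HTB, while Col3a1, Dcn, Pdgfra and Pdgfrb were the lowest. The epithelial markers Krt8, Krt18, Epcam, Cdh1 and Krt19, checked against the colon carcinoma label, summed to 2.63 to 15.6 CPM. Nearly all of that was Cdh1, with 2.07 to 5.6 CPM in the HTB libraries and 5.53 to 15.3 in LTB, which fell in HTB (-1.36 ± 0.35, edgeR adjusted p = 0.0332). Krt8, Krt18 and Krt19 reached at most 0.207 CPM in any library. The part of these tissues in the members' values was not tested, and in whole tumours fewer cells of a type cannot be told apart from less RNA per cell.

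**Figure D3:**
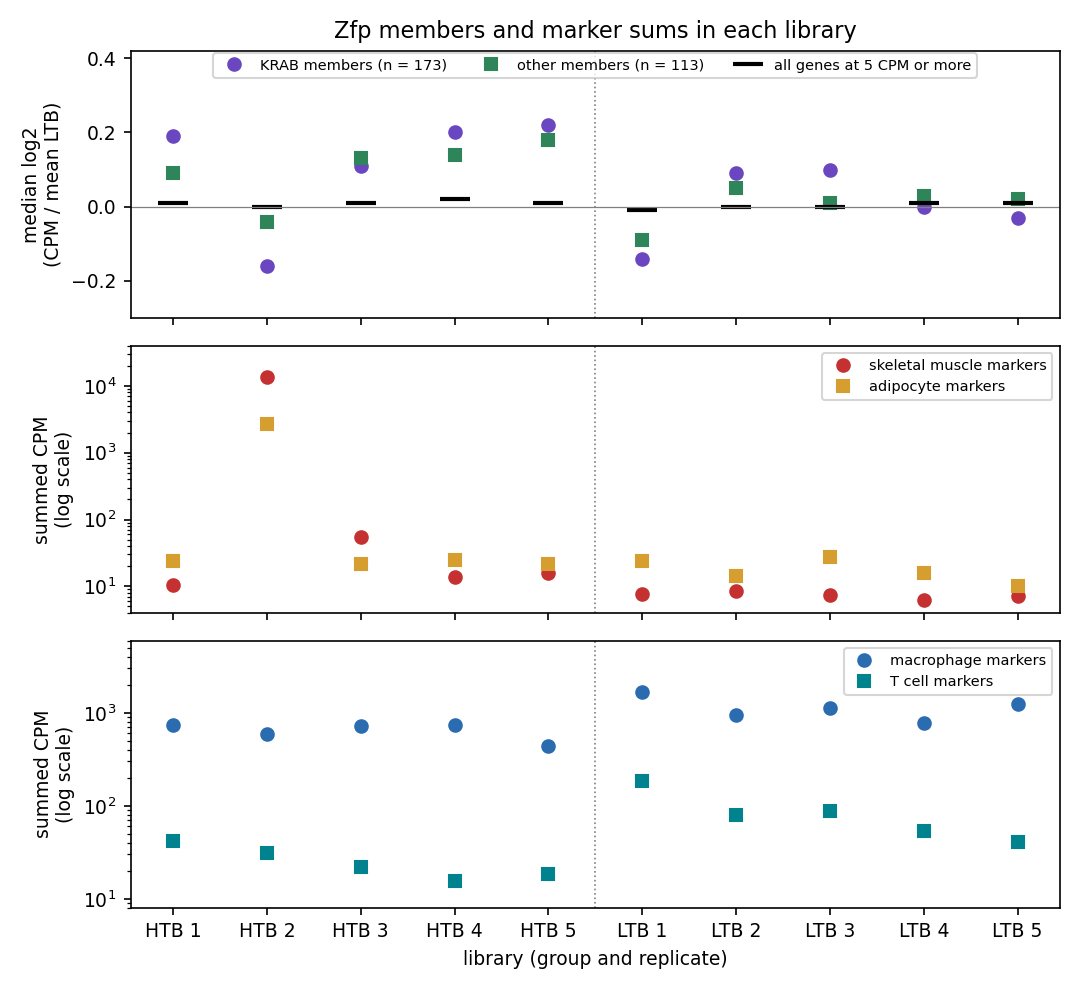
For each library, the upper plot gives the median log2 ratio to the LTB mean for KRAB members, other members and all genes of at least 5 CPM, and the lower plots give the summed CPM of marker lists on log axes. KRAB members reach -0.16 in HTB replicate 2, where muscle markers reach 13347.5 CPM, and -0.14 in LTB replicate 1, where T cell markers reach 185.6 CPM.

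Leaving out HTB replicate 2 changed the picture of the members more than any other library. Then 51 members rose and 6 fell, 19.9% of all members, beside 22.4% of all genes tested (9.77% higher and 12.7% lower). All 16 members named above were among the 57, and 41 were added. The KRAB class held 26 that rose and 0 that fell (DESeq2 with all libraries called 5 and 0), and the others 25 and 6. The median log2 fold change was 0.19 for KRAB members, and 153 of 173 were positive, 88.4% against 49.0% of all genes. In this fit 75 members did not overlap and were higher in HTB, 26.2% of them, where 11.9% of all genes did so. With LTB replicate 1 also left out, 45 members rose and 6 fell, and 81.5% were positive.

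Zfp90, a KRAB member, had the smallest adjusted p among the 41. It stood at 47.0, 33.9, 52.7, 53.5 and 55.7 CPM in HTB and at 34.6, 41.8, 39.9, 37.3 and 43.4 CPM in LTB. HTB replicate 2 lay below all LTB libraries and the other HTB libraries lay above all of them. Its log2 fold change was 0.30 with all libraries (adjusted p = 0.143) and 0.41 ± 0.08 without HTB replicate 2 (adjusted p = 0.00754, edgeR). Zfp644 (0.35 ± 0.07), Zfp967 (0.50 ± 0.11) and Zfp1 (0.40 ± 0.09) came next in that fit. The members added that fell were Zfp503, Zfp341 and Zfp692.

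**Figure D4:**
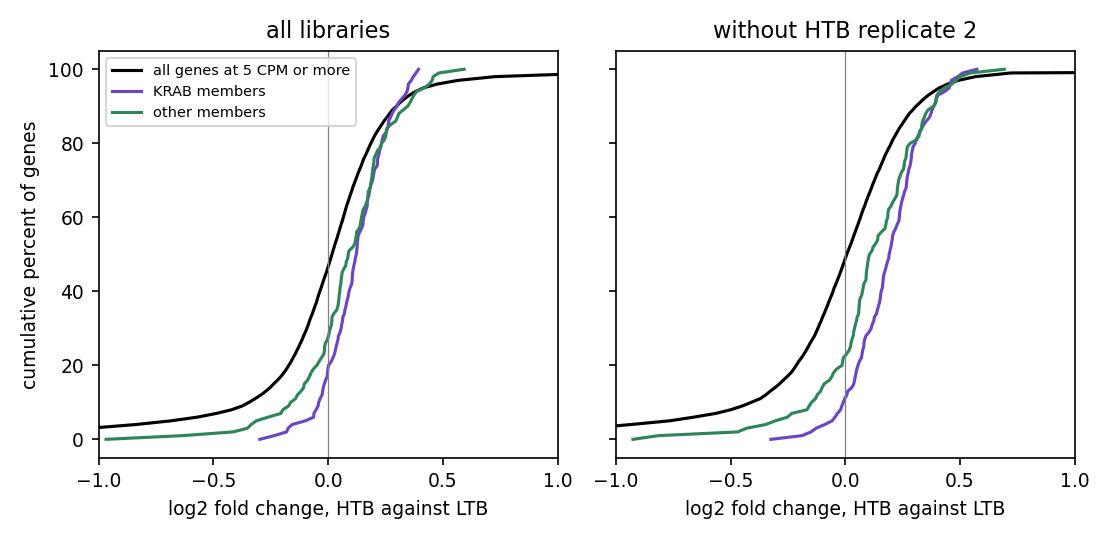
Cumulative percent of genes (vertical axis) by log2 fold change of HTB against LTB (horizontal axis), for KRAB members, other members and all genes of at least 5 CPM, with all libraries on the left and without HTB replicate 2 on the right. The curves of the members lie to the right of that of all genes over most of the range and cross to its left at the upper end, with medians of 0.12 for KRAB members on the left and 0.19 on the right.

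Other zinc finger families at the same level gave the following values, beside 3.9% of all genes higher and 7.51% lower. Among 36 Zbtb genes edgeR called 0, with a median log2 fold change of 0.03. At an unadjusted p under 0.05, 6 were higher and 4 lower, and DESeq2 called 2 higher and 1 lower. Of 15 Zscan and Zkscan genes 2 rose, with a median of 0.11, and of 18 Zc3h genes 1 rose and 1 fell. The 85 KRAB genes with other symbols had a median of 0.19, with 2 higher and 0 lower, and the 250 other C2H2 genes a median of 0.11, with 14 higher and 4 lower. Without HTB replicate 2 the numbers higher and lower were 23 and 0 for the other KRAB genes, 56 and 8 for the other C2H2 genes, 4 and 1 for Zbtb, 4 and 0 for Zscan and Zkscan, and 4 and 1 for Zc3h, beside 9.77% and 12.7% of all genes. KRAB, Zbtb, Zscan and Zkscan genes were not taken out of the C2H2 list, so these lists are not separate from each other. The positive median was thus shared with KRAB and C2H2 genes outside the Zfp symbols, and no difference between these lists was tested.

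Many members lie side by side in the genome. On chromosome 7 there were 71 members and on chromosome 17 there were 39. Grouping members no more than 500 kb apart gave 15 groups of at least 4, with 125 members, 105 of them KRAB. Before grouping, 2 members with a listed span over 1 Mb were set aside, and they count as outside these groups. In these groups 1 member rose (Zfp266) and 0 fell, with a median of 0.11. Outside them, where 68 of 161 were KRAB, 12 rose and 3 fell, with a median of 0.13. Over all genes 3.9% rose and 7.51% fell, and the difference between grouped and other members was not tested. The longest group, on chromosome 17 from 21008793 to 23599755, held 22 members, all KRAB, of which 18 were positive and none passed. Its log2 fold changes ran from -0.07 to 0.35. Neighbours share sequence and may share reads, so they are not independent of each other.

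**Figure D5:**
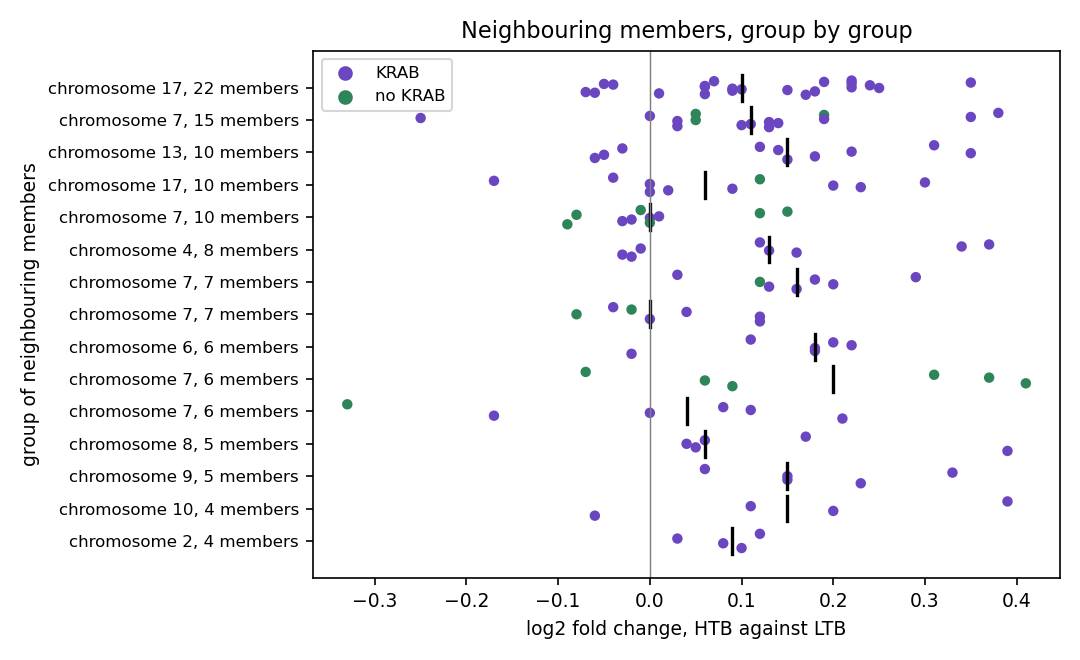
Log2 fold change of HTB against LTB (horizontal axis) for the 125 members in 15 groups of neighbours (rows, with chromosome and number of members), KRAB in purple and others in green, with a vertical bar at each group's median. Values within a group spread across 0 in most rows, and the group of 22 on chromosome 17 runs from -0.07 to 0.35.

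The remaining members that rose were Zfp239 (0.46 ± 0.11), known as Mok2 and able to bind DNA and RNA, Zfp512 (0.30 ± 0.08) and Zfp651 (0.30 ± 0.08), which has a BTB domain. Their adjusted p-values were 0.0242, 0.0291 and 0.0374 (edgeR), and in each the HTB libraries lay above all LTB libraries. Zfp239 is expressed weakly, with 14.3 to 17.9 CPM in the HTB libraries and 9.43 to 12.9 in LTB. In the authors' deposited table, which reports DESeq2 values, 24 members had a q under 0.05 with higher values in HTB and 4 with lower values, beside 6.86% and 7.66% of all genes. Every member called here had the same sign there.

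The 69 Zfp genes below 5 CPM were counted as well. Of these 45 could be tested and 1 passed, 2.22% beside 11.4% of all genes. It was Zfp831, at 0.207 ± 0.123 CPM in HTB and 0.922 ± 0.428 CPM in LTB (SD, n = 5 each), or -2.15 ± 0.42 on the log2 scale (edgeR adjusted p = 0.0112). Zfp366, known as DC-SCRIPT, a factor of conventional dendritic cells, stood at 0.809 ± 0.384 and 0.276 ± 0.169 CPM (1.53 ± 0.47, adjusted p = 0.0587). Of 6 dendritic cell markers 3 fell (Itgax, Ccr7 and Flt3) and 0 rose, beside 7.51% and 3.9% of all genes. Xcr1 (-1.28 ± 0.43), Clec9a (-0.45 ± 0.51) and Zbtb46, which had a positive value (0.19 ± 0.09), did not pass. Their edgeR adjusted p-values were 0.0798, 0.591 and 0.183. The summed CPM of the 6 markers was 18.9 to 25.9 in HTB and 39.3 to 70.1 in LTB. Itgax had a large part in this, at 4.08 ± 1.72 CPM in HTB and 28.7 ± 14.1 CPM in LTB (SD, n = 5 each). Zfp831 and Zfp366 are low enough that a few reads decide their values.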

How the data were processed

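The 10 RNA-seq libraries of whole MC38 tumours (5 HTB, 5 LTB) were prepared with the SMARTER kit for mRNA that the labels' protocols name. The genome build was GRCm38 (mm10), per the submitters' processing notes. Aligner, counter and strand setting: not given in the sources used here. Reads of genes that overlap, on either strand, are therefore not separable. The authors deposited estimated counts per gene and library, of which 86.4% are whole (within 1e-09). The rest were rounded by at most 0.5. The deposited average expression per group is a signal whose unit the header does not name, and it falls with transcript length. The deposited table also holds log2 fold changes with their p-value and q-value, computed with DESeq2 per the file headers. A line without a gene was left out. Totals ranged from 23070917 to 27185168 reads, and no 2 libraries of the same group agreed within sampling noise. The deposited strand differed from GENCODE for 51 of 286 members and was not used.

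Counts were tested with edgeR 4.0.16 (R 4.3.3; TMM, filterByExpr, quasi-likelihood test, group as the only term) on all 10 libraries, with Benjamini-Hochberg adjustment over the 13470 genes tested and a threshold of 0.05. Standard errors were derived from that test, as the absolute log2 fold change divided by the square root of its F statistic. The script was tested on simulated data. KRAB and other domains came from the InterPro and Pfam annotation in the deposited table, in place of a planned search of protein sequences. Fingers were counted in the longest reading frame of GENCODE vM21 transcripts as 2 cysteines 2 to 4 residues apart, 12 residues and 2 histidines 3 to 5 residues apart. The members and lists were chosen with earlier results of these data known. Genes named are the 12 of smallest p that rose, those that fell, and members of the table of roles, with the highest, the most variable and those at the limit of the level rule. Trim28, Setdb1 and the paralogues of Zfp36 were named for their roles. Zfp9, the other genes of counts of 5 or fewer, and the examples added without HTB replicate 2 or by promoter motif were chosen after their values were seen. Alternatives were DESeq2 size factors, upper-quartile factors, the DESeq2 1.42.0 Wald test, limma 3.58.1 voom, 2 other filters, other thresholds and levels, a replicate block, and fits without single libraries. Each library counted as 1 sample.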

Additional observations from a re-analysis of the deposited data

Results flagged for a closer look

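Of 122 groups of 5 libraries examined, 12 had a library far from the other 4. Chance gives about 1 in 20 for a single group, but these groups share libraries and the sum over all members contains the other sums, so the 12 cannot be set against that rate. HTB replicate 2 was the low library in 6 of the 12, and 3 of these 6 are the nested sums. Its members summed to 7858.9 CPM (other HTB libraries 9666.2 to 10001.5), its KRAB members to 3038.5 CPM (3972.6 to 4208.7) and its other members to 4820.5 CPM (5579.8 to 5792.8). It was also low for Zfp827 at 29.3 CPM (35.9 to 38.1), for Zfp148, which binds GC-rich promoters, at 71.3 CPM (92.6 to 98.9), and for Zfp273 at 4.44 CPM (5.71 to 6.12).

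LTB replicate 1 was low for Zfp704 at 46.2 CPM (other LTB libraries 63.1 to 68.9) and high for Zfp36 at 77.1 CPM (31.5 to 36.5). Zfp593, a factor of large ribosomal subunit maturation, was high in both of these libraries, at 35.5 CPM in LTB replicate 1 (21.1 to 24.4) and 29.8 CPM in HTB replicate 2 (18.7 to 21.7). Zfp367 was high in LTB replicate 3 at 73.9 CPM (55.3 to 60.7), and Zfp410 in LTB replicate 5 at 34.4 CPM (31.5 to 31.8).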

How the results depend on the processing

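All 15 of the named members that passed kept their direction under 18 settings of tool, scaling, filter, block and libraries, at the threshold of 0.05, and 6 (Zfp422, Zfp532, Zfp362, Zfp664, Zfp326 and Zfp469) also passed under each. Zfp318 and Zfp523 each lost the call under 10 settings, Zfp651 and Zfp143 under 9. The 16 members that passed became 28 with the DESeq2 Wald test, 3 and 32 at thresholds of 0.01 and 0.1, 51 without HTB replicate 2 and LTB replicate 1 together, and 7 to 57 with 1 library left out. All genes that passed (1537) became 2526, 388, 2624, 2907 and 739 to 3040 under the same settings. KRAB members (2) became 5, 0, 7, 21 and 1 to 26, and 1 with no filter on low counts. Corepressor genes (2) became 4, 0, 4, 6 and 1 to 6, and 1 with no filter, with the 1 CPM filter and with limma voom. CCR4-NOT genes (0) became 2 with DESeq2, 2 at 0.1, 3 without both libraries and 0 to 4 with 1 left out. Tristetraprolin targets (2) became 6 with DESeq2, 1 with voom, 0 at 0.01, 4 at 0.1 and 1 to 4 with 1 left out. The cause of these changes was not tested.

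Libraries with the same replicate number did not deviate together (correlations of 0.00 to 0.11), so the numbers were not taken as a pairing. With the replicate number as a block 971 genes, 7 members (6 higher, 1 lower), 0 KRAB members and 0 corepressor genes passed.

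Members near 0 changed sign, none of them past the threshold. Without both libraries the log2 fold changes were 0.048 for Zfp263, -0.031 for Zfp703, -0.0041 for Zfp568, 0.08 for Zfp131, 0.012 for Zfp410 and -0.14 for Zfp57, and Zfp219 was at -0.0032 with the 1 CPM filter. With 1 library left out the ranges were -0.092 to 0.042 for Zfp263, -0.0041 to 0.18 for Zfp809, -0.019 to 0.086 for Zfp703, -0.0053 to 0.11 for Zfp335, -0.092 to 0.034 for Zfp131, -0.034 to 0.06 for Zfp217, -0.023 to 0.028 for Zfp219, -0.048 to 0.017 for Zfp410 and -0.05 to 0.18 for Zfp57. Counting error is largest for members near 5 CPM, and its share in their spread was not tested.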
